A study of Mus musculus with 6 samples.

Results

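The annexins and galectins described here are 10 genes, the 8 annexins Anxa1, Anxa2, Anxa3, Anxa4, Anxa5, Anxa6, Anxa7 and Anxa11 and the 2 galectins Lgals1 and Lgals3. They were taken by symbol from the 26082 different gene names of the deposited table, each had a single entry, and all 10 were among the 11130 genes whose mean reached 1 FPKM, a level per transcript length and per mapped fragments, that were tested. RNA-Seq was performed on leukemia cells of C57BL/6J mice bearing MLL-AF9 AML, which was raised from c-Kit+ wild-type marrow progenitors given the MLL-AF9 fusion oncogene by retrovirus and then transplanted serially. The recipients had not been irradiated and so kept blood and immune cells of their own. There were 3 samples after vehicle and 3 after DS-5272, which blocks the binding of MDM2 to p53 and was given as an oral dose of 80 mg/kg. After 24 h the leukemia cells were sorted from the marrow, and both groups carried MLL-AF9. No source used here says which mouse or mice gave each sample, so the p-values measure the spread between these samples, which may be technical. The age of the mice was not given in the sources used here.

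Annexins are cytosolic proteins that bind negatively charged phospholipids when calcium rises, and they take part in membrane trafficking, membrane repair and inflammation control. Galectins are lectins without a signal peptide that bind beta-galactosides on glycoproteins, inside the cell and after release. In the myeloid lineage, annexin A1 and annexin A3 are abundant in granulocytes, and galectin-3 is a well-known product of monocytes and macrophages. Annexin A5 is the protein whose labelled form marks phosphatidylserine on apoptotic cells in flow cytometry.

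On GRCm38, Lgals3 lies on chromosome 14 at chr14:47367751-47386160 on the plus strand, and Lgals1 lies at chr15:78926725-78930465 on the plus strand. The annexins are spread over 7 chromosomes, with Anxa1 at chr19:20373428-20390944, Anxa2 at chr9:69453620-69491795, Anxa3 at chr5:96793339-96845966 and Anxa4 at chr6:86736840-86793584. The remaining annexin genes are Anxa5 at chr3:36448923-36475894, Anxa6 at chr11:54979108-55033445, Anxa7 at chr14:20455260-20480133 and Anxa11 at chr14:25842156-25886804. In the GENCODE annotation exons of 4 members overlap another gene, an antisense or intergenic noncoding RNA of the opposite strand for Anxa2, Anxa4 and Anxa11 and a transcript of unproven status on the same strand for Anxa3. The libraries were made with a strand-specific kit, but whether the counting used the strand is not given in the sources used here. The value of Anxa3 can include fragments of its neighbor, and those of the other 3 genes can do so if strand was not used.

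A RefSeq promoter window (GRCm38.p6) was matched for 7 members, and for Anxa3, Anxa6 and Lgals1 no window was matched. The sequence before the start site is shown for 4 members, Lgals3 for its rise, the largest of the 10 genes, Anxa4 as a gene that rose under every alternative setting, and Anxa2 and Anxa11 as genes whose calls depended on single samples. Only bases that no annotated exon covers are printed, in the direction of transcription, and capitals mark matches to the motifs searched. The Lgals3 stretch precedes the RefSeq start and lies in an intron of a longer GENCODE transcript of the gene, and the other 3 lie outside their genes.
Lgals3, chr14:47373610-47373812, plus strand: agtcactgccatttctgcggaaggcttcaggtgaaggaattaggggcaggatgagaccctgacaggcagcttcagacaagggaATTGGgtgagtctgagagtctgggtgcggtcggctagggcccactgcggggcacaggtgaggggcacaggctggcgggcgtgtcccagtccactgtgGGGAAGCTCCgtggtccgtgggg
Anxa4, chr6:86793585-86793834, minus strand: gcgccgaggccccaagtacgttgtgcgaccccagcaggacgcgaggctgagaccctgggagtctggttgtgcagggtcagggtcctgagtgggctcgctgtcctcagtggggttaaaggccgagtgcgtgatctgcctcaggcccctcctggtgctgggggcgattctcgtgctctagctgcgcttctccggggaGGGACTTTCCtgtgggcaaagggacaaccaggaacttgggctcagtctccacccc
Anxa2, chr9:69453433-69453619, plus strand: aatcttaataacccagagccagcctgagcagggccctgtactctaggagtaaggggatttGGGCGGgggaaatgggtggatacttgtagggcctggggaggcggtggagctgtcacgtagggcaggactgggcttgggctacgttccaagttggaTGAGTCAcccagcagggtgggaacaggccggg
Anxa11, chr14:25841905-25842154, plus strand: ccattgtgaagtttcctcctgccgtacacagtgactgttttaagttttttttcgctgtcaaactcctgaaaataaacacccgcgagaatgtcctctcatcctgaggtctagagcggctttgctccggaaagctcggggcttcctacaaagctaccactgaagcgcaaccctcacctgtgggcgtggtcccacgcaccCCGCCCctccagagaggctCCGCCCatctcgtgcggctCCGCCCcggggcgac

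The motifs searched on both strands in the 250 bases before each start were those of AP-1, spelled TGANTCA, the cyclic AMP response element, spelled TGACGTCA, the GC box, spelled GGGCGG, the CCAAT box, named by its own letters, the TATA box, spelled TATAAA, the GAS element, spelled TTCNNNGAA, the E-box, spelled CACGTG, the interferon-stimulated response element, the kappaB motif and the p53 half-site. The Anxa4 window held a kappaB match 55 bases before the start and the Lgals3 window held 1 at 70 bases, where 7.25% of all 32851 windows held at least 1 such match. The Lgals3 window also held a CCAAT box on the minus strand at 167 bases (33.8% of all windows). Anxa2 had an AP-1 match at 95 bases (6.75% of all windows) and a GC box at 190 bases, and Anxa11 had 3 GC boxes within its last 53 bases (32.7% of all windows). The letters are a description of the windows, and no binding was measured. Nearer to the start, in bases that an exon covers and that are not printed, Anxa2 had GC boxes at 48 and 24 bases and a TATA box at 17 bases (12.4% of all windows), and Lgals3 had a GC box at 7 bases. The Anxa1 window, which an exon covers and which is not printed, held a p53 half-site at 136 bases, matched on both strands (7.13% of all windows), and a TATA box at 32 bases. It was the only window of a member with a p53 half-site. Of the 2 windows of Anxa7, 1 held 4 GC boxes and an E-box at 113 bases (6.02% of all windows) and the other held 1 GC box at 8 bases. These 2 windows overlap, and the box at 8 bases is the same site as the box at 200 bases in the first. The window of Anxa5 and the second window of Anxa4 held none of these motifs.

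All 10 genes had a higher mean with DS-5272, beside 52.8% of all genes tested with a log2 fold change above 0, and 6 of them rose past the threshold, Lgals3, Anxa5, Anxa6, Anxa4, Anxa2 and Anxa7. Of all genes tested, 24.2% were called upregulated by the same rule (adjusted p under 0.05 from limma), and 22.0% were called downregulated. No member was downregulated, also at an unadjusted p under 0.05, where 26.1% of all genes tested were lower. The median log2 fold change of the members was 0.88, beside 0.04 for all genes tested. The values of the groups did not overlap for the same 6 members, beside 32.1% of all genes tested with every DS-5272 value above every vehicle value. In bulk samples a higher share of cells that express a gene and more RNA per cell cannot be told apart.

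**Figure D1:**
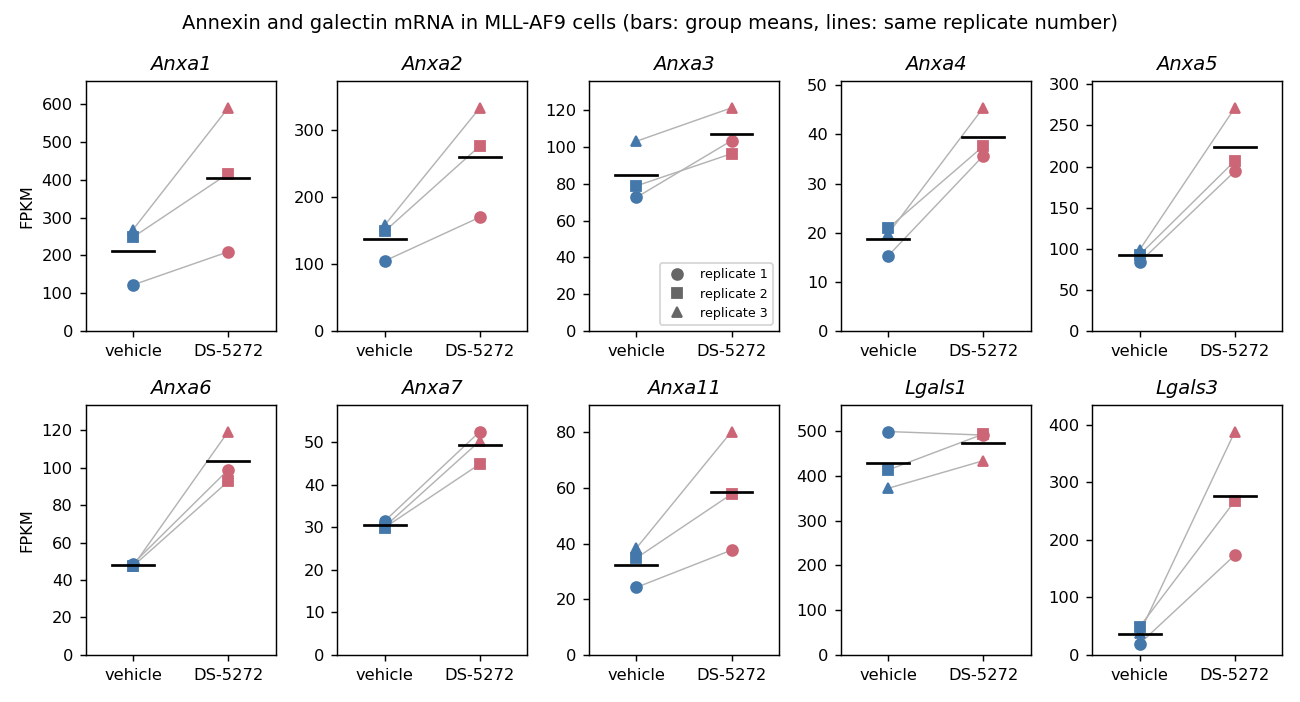
FPKM of each of the 10 genes (y axis, from 0) in the 3 vehicle and the 3 DS-5272 samples, with bars at the group means and lines joining samples of the same replicate number. Lgals3 went from 19.5 to 49.0 FPKM with vehicle to 173 to 388 FPKM with DS-5272, while the Lgals1 groups overlapped.

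Lgals3, which encodes galectin-3, had the largest change. The vehicle samples gave 19.5, 49.0 and 38.4 FPKM and the DS-5272 samples gave 173, 268 and 388 FPKM, here and below in the order of replicates 1, 2 and 3. Every DS-5272 sample was far above every vehicle sample, and replicate 1 was the lowest in each group. The vehicle mean of 35.7 ± 14.9 FPKM (SD, n = 3) rose to 276 ± 108 FPKM with DS-5272 (SD, n = 3), a ratio of 7.75 and a log2 fold change of 2.94 on the log2(FPKM + 1) scale (SE 0.40, limma adjusted p = 0.00336). By log2 fold change this rise was number 72 of the 11130 genes tested. In level, Lgals3 moved from above 76.5% of the tested genes with vehicle to above 97.1% with DS-5272.

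Lgals1, which encodes galectin-1, a prototype galectin with a single carbohydrate-binding domain that works as a dimer, did not pass the threshold. It had 499, 413 and 372 FPKM in the vehicle samples and 491, 493 and 434 FPKM in the DS-5272 samples. The groups overlapped, with the highest value of all in vehicle replicate 1. The log2 fold change was 0.15 (SE 0.14, limma adjusted p = 0.415), and it was −0.12 after rescaling to a common total and −0.29 after quantile normalization. The ratio of Lgals3 to Lgals1 in FPKM, which is per transcript length, was 0.0391, 0.119 and 0.103 with vehicle and 0.353, 0.543 and 0.894 with DS-5272.

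Among the annexins, Anxa5 rose most. It encodes annexin A5, the phosphatidylserine-binding annexin used as an apoptosis probe. Its values were 84.1, 93.0 and 99.1 FPKM with vehicle and 194, 207 and 271 FPKM with DS-5272, so that the lowest DS-5272 value was above the highest vehicle value by a wide margin. Its log2 fold change was 1.26 (SE 0.15, limma adjusted p = 0.00242).

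Anxa6 encodes annexin A6, an annexin with a doubled core that is linked to endosomes and cholesterol handling. It was at 48.7, 47.4 and 47.4 FPKM in the vehicle samples and at 98.9, 92.7 and 119 FPKM in the DS-5272 samples. The vehicle values were nearly equal, with a coefficient of variation of 1.53%, and the DS-5272 values lay at about 2.17 times their mean. The log2 fold change was 1.09 (SE 0.12, limma adjusted p = 0.00181).

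Anxa4 encodes annexin A4, which associates with membranes of secretory and epithelial cells. Its values were 15.3, 20.9 and 19.8 FPKM with vehicle and 35.7, 37.6 and 45.4 FPKM with DS-5272, with no overlap. It had the lowest mean of the members in both groups and rose by a log2 fold change of 1.05 (SE 0.15, limma adjusted p = 0.00390).

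Anxa7 encodes annexin A7, also known as synexin, which promotes the fusion of secretory vesicles. It had 31.5, 29.9 and 30.1 FPKM with vehicle and 52.5, 44.9 and 50.3 FPKM with DS-5272. The groups were narrow and apart, and the log2 fold change was 0.67 (SE 0.10, limma adjusted p = 0.00385). With a common total it was 0.41 and the call was lost (limma adjusted p = 0.0637, the highest over its alternatives, the lowest being 0.00335).

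Anxa2 encodes annexin A2, which binds plasminogen and tissue plasminogen activator at the cell surface as a complex with S100A10. It was at 105, 149 and 158 FPKM with vehicle and at 170, 276 and 333 FPKM with DS-5272. The groups did not overlap, but DS-5272 replicate 1 was close to vehicle replicate 3. Its log2 fold change was 0.88 (SE 0.28, limma adjusted p = 0.0380). The call of Anxa2 was lost without vehicle replicate 1, 2 or 3 (limma adjusted p = 0.112, 0.0805 and 0.0609) and without DS-5272 replicate 2 or 3 (limma adjusted p = 0.102 and 0.0976), with a log2 fold change from 0.68 to 1.16 over the 6 fits without 1 sample. It was also lost with no filter on low FPKM (0.0717) and with quantile normalization (0.0506), and over all its alternatives the adjusted p ran from 0.00208 to 0.112.

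Anxa1, Anxa11 and Anxa3 did not pass the threshold, and their groups overlapped. Anxa1 encodes annexin A1, the glucocorticoid-regulated annexin that limits neutrophil recruitment through formyl peptide receptors. It was at 122, 248 and 269 FPKM with vehicle and at 210, 416 and 590 FPKM with DS-5272, so DS-5272 replicate 1 lay below vehicle replicates 2 and 3. The log2 fold change was 0.88, equal to that of Anxa2, with an SE of 0.44 (limma adjusted p = 0.144). Without DS-5272 replicate 1 it was 1.29 and passed (limma adjusted p = 0.0345), and it was 0.53 without vehicle replicate 1 and 0.55 without DS-5272 replicate 3, with adjusted p from 0.00230 to 0.364 over its alternatives.

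Anxa11 encodes annexin A11, which tethers RNA granules to lysosomes and acts in cytokinesis. Its values were 24.3, 34.8 and 38.4 FPKM with vehicle and 37.7, 57.8 and 80.3 FPKM with DS-5272, with DS-5272 replicate 1 just under vehicle replicate 3. Its log2 fold change was 0.79 (SE 0.29, limma adjusted p = 0.0632), and it was 1.07 without DS-5272 replicate 1 (limma adjusted p = 0.0172). It was 0.53 without DS-5272 replicate 3 and 0.60 without vehicle replicate 1 (limma adjusted p = 0.151 and 0.176), and the lowest adjusted p over its alternatives was 0.00382.

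Anxa3 encodes annexin A3, an annexin of neutrophil granule membranes. It was at 72.5, 78.8 and 103 FPKM with vehicle and at 103, 96.2 and 121 FPKM with DS-5272, and DS-5272 replicate 2 was under vehicle replicate 3. The change of 0.34 in log2 (SE 0.16, limma adjusted p = 0.123) was the smallest of the annexins. It was 0.20 with a common upper quartile, 0.089 with quantile normalization and 0.076 with a common total, with adjusted p from 0.0282 to 0.665 over its alternatives.

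Samples that shared a replicate number were compared next. No source used here says that such samples belong together, and the pairing was read from these same data. Within the same number, DS-5272 was higher than vehicle in all 3 pairs for 9 of the 10 genes, Lgals1 being the exception, beside 41.8% of all genes tested. For Anxa1 the log2 differences of the pairs numbered 1, 2 and 3 were 0.77, 0.74 and 1.13, for Anxa2 0.69, 0.89 and 1.07 and for Anxa11 0.61, 0.72 and 1.05. When the number entered the fit as a block, 9 members were upregulated, beside 30.3% of all genes tested. The adjusted p became 0.00230 for Anxa1, 0.00382 for Anxa11 and 0.0282 for Anxa3, while Lgals1 stayed above the threshold (limma adjusted p = 0.196).

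**Figure D2:**
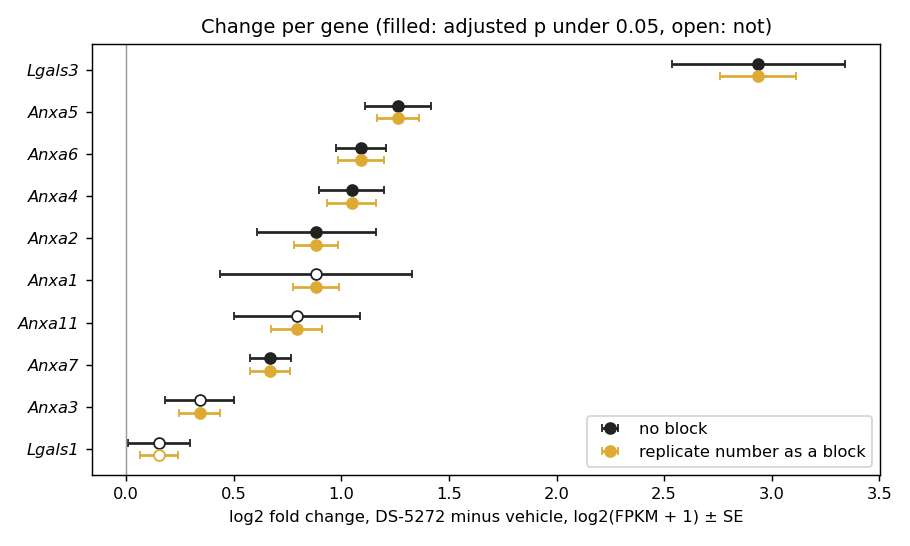
Log2 fold change (x axis, DS-5272 minus vehicle on the log2(FPKM + 1) scale, bars: standard error) of each gene, in black without a block and in yellow with the replicate number as a block, filled where the adjusted p was under 0.05. Without the block 6 of the 10 genes are filled and with it 9, Lgals1 staying open at 0.15.

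Replicate 1 was the lowest sample in both groups for 6 members, Anxa1, Anxa2, Anxa4, Anxa5, Anxa11 and Lgals3. The same held for 29.2% of all genes tested. The total of all FPKM was also lowest in replicate 1 of each group. It was 445316, 492100 and 501241 with vehicle and 499229, 579884 and 661184 with DS-5272. Anxa1 had the widest spread within DS-5272, where replicate 3 was at 2.81 times replicate 1, and Lgals3 had the widest spread within vehicle, where replicate 2 was at 2.51 times replicate 1. Anxa6 and Anxa7 were the narrowest in the vehicle group, with coefficients of variation of 1.53% and 2.71%.

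In the order of levels, Lgals1 was the most abundant member with vehicle, at 428 ± 64.8 FPKM (SD, n = 3), and all its values were above those of Anxa1 at 213 ± 79.3 FPKM (SD, n = 3). Anxa1 and Anxa2 (137 ± 28.5 FPKM) overlapped, as did Anxa5 (92.1 ± 7.56 FPKM) and Anxa3 (84.7 ± 16.1 FPKM). Anxa6 (47.9 ± 0.73 FPKM) lay below Anxa3 in every sample and overlapped Lgals3, which overlapped Anxa11 (32.5 ± 7.34 FPKM). Anxa11 overlapped Anxa7 (30.5 ± 0.83 FPKM), and Anxa4 (18.7 ± 2.97 FPKM) was below all of them in every sample.

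With DS-5272 the first 5 places went to Lgals1 (473 ± 33.7 FPKM), Anxa1 (405 ± 190 FPKM), Lgals3, Anxa2 (259 ± 82.7 FPKM) and Anxa5 (224 ± 41.3 FPKM), and each of these overlapped the next. Lgals3 moved from the seventh place to the third. Below a gap came Anxa3 (107 ± 12.8 FPKM) and Anxa6 (104 ± 13.9 FPKM), which overlapped. A second gap separated Anxa11 (58.6 ± 21.3 FPKM), Anxa7 (49.2 ± 3.92 FPKM) and Anxa4 (39.6 ± 5.16 FPKM), each of which overlapped its neighbor.

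The 10 genes together summed to 1022, 1164 and 1175 FPKM in the vehicle samples and to 1567, 1990 and 2433 FPKM in the DS-5272 samples. Of the difference between the group means, Lgals3 made up 27.5%, Anxa1 22.0%, Anxa5 15.1% and Anxa2 14.0%, and the other 6 genes made up the rest. The share of Lgals1 in the sum went from 48.8%, 35.5% and 31.7% with vehicle to 31.4%, 24.8% and 17.8% with DS-5272, so that its ranges nearly touched. That of Lgals3 went from 1.91%, 4.21% and 3.27% to 11.1%, 13.5% and 16.0%. Anxa5 took 7.99% to 8.43% of the sum with vehicle and 10.4% to 12.4% with DS-5272. Anxa1 held 12.0% and 13.4% in the replicates numbered 1 and from 20.9% to 24.3% in the others, whatever the treatment. The 10 genes made up 0.230% to 0.237% of all FPKM with vehicle and 0.314% to 0.368% with DS-5272.

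**Figure D3:**
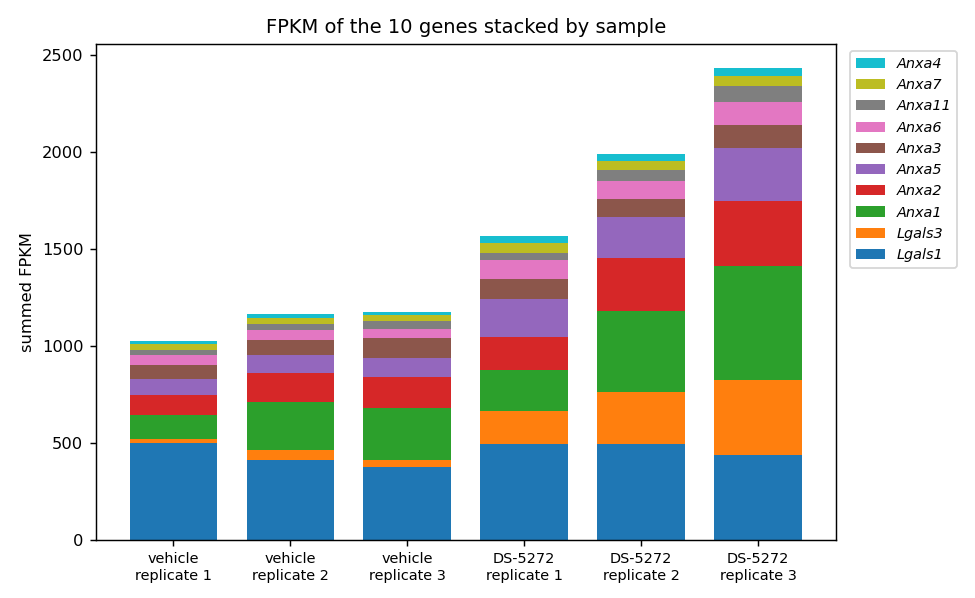
FPKM of the 10 genes stacked for each of the 6 samples (y axis, summed FPKM from 0). The orange part, Lgals3, is thin in the 3 vehicle samples and reaches 388 FPKM in DS-5272 replicate 3, while the blue part, Lgals1, stays between 372 and 499 FPKM.

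The genes whose pattern over the 6 samples was nearest to that of Lgals3, by the root mean square difference of centred log2(FPKM + 1) values, were H2-Q10 (0.11), Fgr (0.20) and Zfp36l1 (0.22). H2-Q10 is a class I MHC gene with near-identical relatives, so its value is uncertain. Fgr encodes a Src family kinase of myeloid cells, which was at 8.86, 17.3 and 21.6 FPKM with vehicle and at 75.2, 132 and 176 FPKM with DS-5272. Zfp36l1 encodes a protein that binds AU-rich mRNA elements, and its exons overlap a noncoding RNA of the opposite strand.

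The relatives and partners of the members were read from 7 lists with 66 genes, of which 64 had an entry (1 under an older symbol) and 45 passed the FPKM filter. Of these 45, 22 were upregulated and 1 was downregulated, with a median log2 fold change of 0.48, and the block gave 24 and 1. The shares called over all genes tested were 24.2% and 22.0%. After rescaling to a common total 18 of these genes were upregulated and 1 was downregulated, where 15.4% of all genes tested were upregulated. The lists, like the members, were chosen with earlier results of these data known, so their counts are a description and not a test. Exons of Lgals8, Fpr2, Mgat5, Stab1, Capn1 and Capn2 overlap another gene in the annotation.

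Among the other annexins, Anxa9 was the 1 gene tested, at 7.89 ± 0.31 FPKM (SD, n = 3) with vehicle and a log2 fold change of 0.14 (SE 0.11, limma adjusted p = 0.328). Anxa8, Anxa10 and Anxa13 were listed at 0 in all samples. Among the other galectins, Lgals9, whose product is a tandem-repeat galectin and a ligand of Tim-3, was the most abundant. It was at 185, 172 and 172 FPKM with vehicle and at 287, 251 and 313 FPKM with DS-5272. The groups did not overlap, and the log2 fold change was 0.67 (SE 0.12, limma adjusted p = 0.00612, and 0.130 with quantile normalization, the highest over its alternatives).

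Lgals8, which encodes galectin-8, a sensor of damaged endosomes and lysosomes, rose from 15.2, 15.9 and 14.4 FPKM to 26.7, 19.7 and 24.9 FPKM. Its log2 fold change was 0.61 (SE 0.13, limma adjusted p = 0.0111), and a common total gave 0.35 (adjusted p = 0.147, the highest over its alternatives). Lgals4 was at 3.53 to 5.35 FPKM with vehicle and at 5.52 to 10.3 FPKM with DS-5272 (limma adjusted p = 0.0844, and 0.0473 with the block). Lgals2, Lgals7, Lgals12, Grifin and the galectin-like Lgalsl were below the filter, and Havcr2, which encodes Tim-3, was also below it, with 0.118 to 0.146 FPKM with vehicle and 0.234 to 0.677 FPKM with DS-5272.

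In the list of annexin binding partners 4 of 7 tested genes were upregulated and none was downregulated, with a median log2 fold change of 0.77. Over all genes tested the called shares were 24.2% and 22.0%. S100a6, which encodes a calcium-binding partner of several annexins, had the largest change. It was at 5.91, 13.5 and 9.71 FPKM with vehicle and at 63.9, 170 and 227 FPKM with DS-5272 (3.73 ± 0.49 SE in log2, limma adjusted p = 0.00312). Ahnak, whose giant product is held at the membrane by annexin A2 and S100A10, was at 0.709, 0.981 and 1.11 FPKM with vehicle and at 2.72, 8.10 and 10.1 FPKM with DS-5272 (1.91 ± 0.39 SE in log2, limma adjusted p = 0.00994). Its vehicle mean was under 1 FPKM, so it passed the filter only through the DS-5272 samples. It still counts among the 4 upregulated genes of this list and the 22 of all lists, and it enters their medians. Sri, which encodes sorcin, a partner of annexin A7, rose by 0.77 (SE 0.17, limma adjusted p = 0.0123).

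S100a11, which encodes a partner of annexin A1, was the most abundant gene of that list, at 495, 677 and 778 FPKM with vehicle and at 852, 1231 and 1664 FPKM with DS-5272. The rise of 0.91 in log2 (SE 0.28, limma adjusted p = 0.0364) was close to that of Anxa1 and Anxa2, and like that of Anxa2 its call was lost in 5 of 6 fits without 1 sample (all but DS-5272 replicate 1, adjusted p up to 0.109) and with no filter (0.0828). S100a10, the partner of annexin A2 in the heterotetramer, was at 12.0, 14.6 and 14.9 FPKM with vehicle and at 8.59, 22.4 and 31.2 FPKM with DS-5272. DS-5272 replicate 1 was below every vehicle sample and the other two DS-5272 samples were above them, so the log2 fold change of 0.39 (SE 0.42) did not pass (limma adjusted p = 0.467). Leaving out DS-5272 replicate 1 gave 0.89 (limma adjusted p = 0.0133), leaving out DS-5272 replicate 3 gave 0.020 (limma adjusted p = 0.969), and a common total gave 0.13. The ratio of Anxa2 to S100a10 in FPKM was 8.71, 10.2 and 10.6 with vehicle and 19.8, 12.3 and 10.7 with DS-5272.

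The 2 formyl peptide receptor genes tested, whose products bind annexin A1 and its N-terminal peptides, were both upregulated. Fpr1 was at no more than 2.42 FPKM with vehicle and at 39.9, 40.4 and 68.3 FPKM with DS-5272 (3.90 ± 0.21 SE in log2, limma adjusted p = 0.000605). Fpr2 was at 9.48, 12.0 and 11.3 FPKM with vehicle and at 63.8, 96.1 and 179 FPKM with DS-5272 (3.13 ± 0.35 SE in log2, limma adjusted p = 0.00199). The FPKM of Anxa1 was 55.7 to 119 times that of Fpr1 with vehicle and 5.26 to 10.3 times with DS-5272. An exon of Fpr2 overlaps Fpr3, and the family has near-identical members, so its value is uncertain.

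In the list of galectin ligands and glycan branching enzymes 6 of 12 tested genes were upregulated and 1 was downregulated, with a median of 0.34. Over all genes tested these shares were 24.2% and 22.0%. Lgals3bp, which encodes a secreted glycoprotein bound by galectin-3, was at 72.6, 32.7 and 27.2 FPKM with vehicle and at 205, 101 and 123 FPKM with DS-5272. Here replicate 1 was the highest in both groups, the reverse of Lgals3. The log2 fold change was 1.74 (SE 0.41, limma adjusted p = 0.0147, and 0.0557 without vehicle replicate 2). Ptprc, which encodes CD45, a glycoprotein ligand of galectin-1, rose by 1.18 and Cd44 by 1.10, with standard errors of 0.18 and 0.24 and adjusted p of 0.00413 and 0.0114 from limma.

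Mgat5, which encodes the enzyme that adds the N-glycan branch favored by galectin-3, was the related gene that was downregulated. It was at 94.4, 59.3 and 56.5 FPKM with vehicle and at 53.8, 28.1 and 26.7 FPKM with DS-5272, and every DS-5272 value was below every vehicle value. Its log2 fold change was −0.97 (SE 0.31, limma adjusted p = 0.0418, and 0.00169 with the block). Its call was lost in 5 of 6 fits without 1 sample (all but DS-5272 replicate 1, adjusted p from 0.0621 to 0.118) and with no filter (0.0784), and 1 exon overlaps Tmem163 on the opposite strand.

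**Figure D4:**
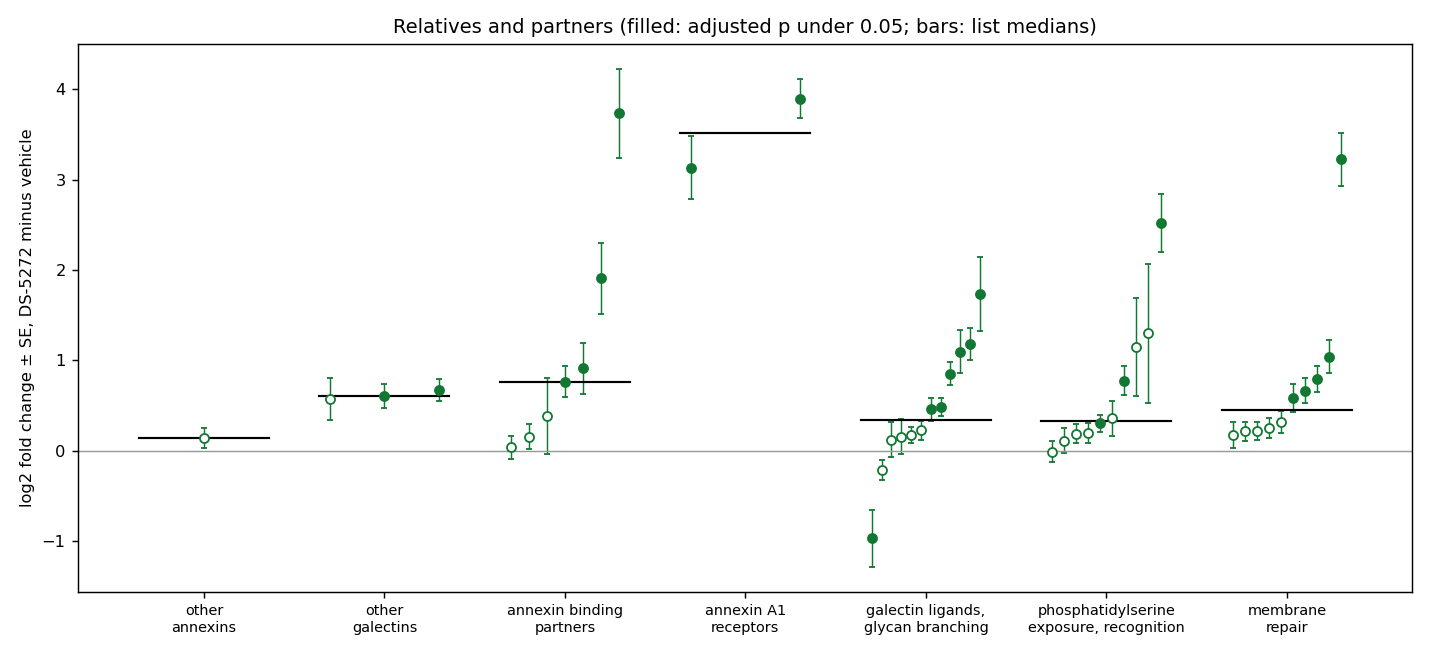
Log2 fold change (y axis, DS-5272 minus vehicle on the log2(FPKM + 1) scale, bars: standard error) of the 45 tested relatives and partners by list, filled where the adjusted p was under 0.05, with horizontal bars at the list medians. Both formyl peptide receptor genes lie above 3, and Mgat5, at −0.97, is the filled point below 0.

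For phosphatidylserine exposure and recognition, the process that annexin A5 reports on, the median log2 fold change was 0.33. Upregulated were 3 of the 10 tested genes of this list, which is near the 24.2% of all genes tested. These were Stab1 (2.52, standard error 0.32), which encodes a receptor for phosphatidylserine, the phospholipid scramblase gene Plscr1 (0.78, standard error 0.16) and Tmem30a (0.31, standard error 0.09), which encodes the subunit of phosphatidylserine flippases, with limma adjusted p of 0.00274, 0.0104 and 0.0353. The call of Tmem30a was lost in 5 of 6 fits without 1 sample (all but DS-5272 replicate 3) and under each of the 4 rescalings. The scramblase genes Xkr8 and Ano6 had log2 fold changes of 0.11 and 0.19 and did not pass (limma adjusted p = 0.533 and 0.183). Mertk and Axl, with vehicle means of 0.559 and 0.463 FPKM, passed the filter only through the DS-5272 samples, mainly replicate 1 (7.65 and 12.6 FPKM). They were not called, but their log2 fold changes of 1.15 and 1.30 enter the median of the list. Mfge8, with means of 1.04 FPKM with vehicle and 0.278 FPKM with DS-5272, was below the filter and does not enter it.

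In the membrane repair list 5 of 10 tested genes were upregulated, with a median of 0.45. With the block 6 were, which added the ESCRT-III gene Chmp3 (limma adjusted p = 0.0662 without and 0.0300 with it). Over all genes tested, 24.2% were upregulated without and 30.3% with the block. Capn2, which encodes the catalytic subunit of m-calpain, went from 2.14, 2.13 and 1.53 FPKM to 15.8, 31.5 and 36.0 FPKM (3.22 ± 0.30 SE in log2, limma adjusted p = 0.00123). Capn1 rose by 1.04 and Chmp4b, also of ESCRT-III, by 0.79, with standard errors of 0.19 and 0.14 and adjusted p of 0.00654 and 0.00677 from limma. Dysf, Myof and Trim72 were below the filter.

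Markers of several cell types moved with the treatment, and their part in these results was not tested. Beside the marker counts below, 24.2% of all genes tested were upregulated (30.3% with the block) and 22.0% were downregulated. Of 10 mature neutrophil markers 8 were upregulated (10 with the block), and their summed level was 204 to 1707 FPKM with vehicle and 3313 to 15526 FPKM with DS-5272. Most of the highest sums came from S100a8 and S100a9, at 541 and 487 FPKM in vehicle replicate 3 and at 5953 and 6366 FPKM in DS-5272 replicate 3. In both groups 8 of the 10 were lowest in replicate 1, as the 6 members were, beside 29.2% of all genes tested. Of 10 tested macrophage markers 5 were upregulated and 6 with the block (sums of 78.4 to 136 and 218 to 486 FPKM). Most of the vehicle sums came from Vcam1 (36.6, 64.1 and 82.8 FPKM) and Adgre1 (16.7, 17.6 and 23.3 FPKM). The paper reports VCAM-1 protein raised by DS-5272 in c-Kit+ leukemia cells, so these sums need not reflect macrophages alone. Among the DS-5272 samples, 10 of the 11 macrophage markers with an entry were highest in replicate 1, where the same 6 members were lowest. Of all genes tested, 42.3% were lowest in that sample of the group, and the share that was highest in it was not derived. Of 6 tested monocyte markers 4 were upregulated (sums of 1271 to 1306 and 1149 to 1500 FPKM), and the 4 tested granule genes of myeloid progenitors all fell. The summed markers of NK cells and T cells were at most 0.844 and 0.396 FPKM with vehicle and 2.99 and 3.53 FPKM with DS-5272. Those of B cells were between 3.39 and 5.02 FPKM, of which Cd79b made up from 3.15 to 4.79 FPKM. The block also raised the upregulated markers of megakaryocytes from 0 to 1 and of stroma and endothelium from 1 to 2. Sums for erythroid cells were 1.94 to 3.86 and 8.28 to 91.5 FPKM, for megakaryocytes 1.68 to 2.08 and 4.32 to 7.04 FPKM, and for stroma and endothelium 29.0 to 60.0 and 73.4 to 112 FPKM, most of the last from Pecam1. Trat1 (T cells), Klre1 (NK cells) and Gp6 (platelets) were listed at 0 in all vehicle samples. Of the leukemia program, Kit fell to 4.94 to 12.1 FPKM from 30.5 to 45.0 FPKM, Mef2c, tested only through its DS-5272 level, rose from 0.0984 to 0.295 FPKM to 1.54 to 2.45 FPKM, and Meis1, Pbx3, Myb and Cd34 did not pass the threshold, although Myb did with the block (adjusted p = 0.116 without and 0.0369 with it). Without DS-5272 replicate 1, 8 members were upregulated, beside 26.4% of all genes tested. That sample had the highest summed macrophage markers and, of the DS-5272 samples, the lowest summed neutrophil markers. It also had the lowest FPKM total (499229) and the greatest relative depth (0.746) of the DS-5272 samples. Whether any of these bears on the calls was not tested.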

How the data were processed

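RNA-Seq was performed on sorted MLL-AF9 leukemia cells in 6 samples. Per the labels and the paper's methods, reads were trimmed with cutadapt 1.8.1, checked with FastQC, aligned to GRCm38 reference transcripts with TopHat2 2.1.1 and turned into gene FPKM values with Cufflinks 2.2.1. The deposited FPKM values are scaled by the authors to transcript length and mapped fragments, so no count model was used. The table has 26632 rows, and 435 names on more than 1 row were summed. Groups were compared with limma 3.58.1 in R 4.3.3 (lmFit, then eBayes with trend, two-sided, no block) on log2(FPKM + 1), over the 11130 genes whose mean was 1 FPKM or more, with Benjamini-Hochberg adjustment over all of them and a threshold of 0.05. This scale understates the change of low genes. An exact permutation test of 3 against 3 cannot go below p = 0.1. The fit was tested on simulated data.

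The authors' table gives no read totals. From the steps of FPKM values under 0.15, the depth relative to vehicle replicate 1 was 0.808 and 0.885 in the other vehicle samples and 0.746, 0.652 and 0.539 in DS-5272 replicates 1, 2 and 3. The number of fragments behind each value is therefore not known, and no counting interval was derived.

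Replicate numbers run from 1 to 3 in both groups, and no source used here names a shared batch. Deviations from the group means correlated by 0.66, 0.21 and 0.43 between samples of the same number and by −0.58 to 0.34 between others. The limit set for a paired design was 0.1, which each same-numbered pair exceeded. Vehicle replicate 2 with DS-5272 replicate 3 (0.34) and vehicle replicate 3 with DS-5272 replicate 2 (0.18) exceeded it too, and vehicle replicate 2 correlated most with DS-5272 replicate 3. The pairing was thus read from the same values to which the replicate block was fitted. Values with this block are given for the members and for each list count that it changes.

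The members and the lists were chosen with earlier results of these data known. All members were named, and related genes past the threshold with the largest changes or a known tie to a member. Anxa9, Lgals4, Havcr2, Xkr8, Ano6, Mertk, Axl and the genes named as below the filter, the markers named one by one, and the promoters printed were chosen after their values were seen. Gene coordinates and exon overlaps come from GENCODE M21 and promoter sequences from RefSeq (GRCm38.p6). Tried as alternatives were 0.1 as pseudocount, a filter at 5 FPKM or none, 4 rescalings, the replicate block, no trend, a required change of 1 in log2, the highest row per name and each sample left out. Summaries and plots were made in Python 3.11.15 (pandas 2.3.3, numpy 2.4.6, matplotlib 3.10.9).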

Additional observations from a re-analysis of the deposited data

How the results depend on the processing

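Of the 10 genes, Lgals3, Anxa4, Anxa5 and Anxa6 kept their direction and their call under all 16 alternatives, Lgals3 with a log2 fold change from 2.57 to 3.24. From 4 to 9 members were upregulated, with the lowest count when a log2 fold change of at least 1 was required and the highest with the replicate block, and from 5 to 8 when 1 sample was left out. The share of all genes tested that was upregulated moved as well. It was 30.3% with the block, 15.4% with a common total and from 14.6% to 26.4% when 1 sample was left out. For a required log2 fold change of 1 this share was not derived. No member was downregulated under any alternative. The log2 fold change of Lgals1, which did not pass in any fit, was −0.12 after rescaling to a common total and −0.29 after quantile normalization, and that of Anxa9 was −0.10 after rescaling to a common total. That rescaling moved the median log2 fold change of all genes tested to −0.19 and gave 1713 upregulated and 3555 downregulated genes in place of 2697 and 2451, and a common upper quartile gave 2233 and 3179. The median of the members was 0.62 with the common total and 0.74 with the common upper quartile. Of the related genes, 10 were upregulated and 0 downregulated with a log2 fold change of at least 1, and from 0 to 1 were downregulated when 1 sample was left out. From 16 to 24 were upregulated when 1 sample was left out. The replicate block changed the calls of Anxa1, Anxa3, Anxa11 and Lgals4 and of no other member or tested galectin. The DS-5272 libraries are the shallower ones, so counting error weighs more on their low values.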
